A study of Mus musculus with 6 samples.

Results

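The genes that keep, copy and remove DNA methylation were followed in mouse primary chondrocytes with and without Uhrf1. They were 10 genes chosen by symbol: the hemimethylated-DNA reader Uhrf1 and its relative Uhrf2, the methyltransferase genes Dnmt1, Dnmt3a and Dnmt3b, the dioxygenase genes Tet1, Tet2 and Tet3, the glycosylase gene Tdg and the chromatin remodeller gene Hells. Each had 1 row among the 23351 genes of the deposited table. RNA came from 6 libraries, 3 of Uhrf1 conditional knockout (cKO) and 3 of Control mice, all of strain C57BL/6. Cells were digested from knee cartilage on postnatal day 3 and, in both groups, treated at confluence with 100 ng/ml of recombinant human BMP-2, a morphogen used to push chondrocytes through differentiation, for 24 hours. The labels name neither the Cre driver nor the floxed allele, and do not say what the Control mice carried, how many animals gave each library or which exons were deleted.

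In mammals, methylation of CpG dinucleotides is copied after replication. UHRF1 binds DNA methylated on the parental strand only, ubiquitylates histone H3 and the PCNA-bound factor PAF15, and so brings DNMT1 to the new strand, while HELLS remodels nucleosomes so that methylation reaches packed chromatin. DNMT3A and DNMT3B set methylation anew, and TET enzymes oxidise methylcytosine to forms that TDG can excise. In cartilage, as elsewhere, Uhrf1, Dnmt1 and Hells are known as genes of dividing cells.

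Values were FPKM, fragments scaled to transcript length and library size, so levels can be set side by side between genes. Each library had 11233 to 11635 genes at 1 FPKM or more. Absolute depth is unknown, but the spacing of low values put the depth of the other libraries at 0.864 to 1.01 times that of Control 1. Across 11911 genes, which are not independent, Pearson's r of log2(FPKM + 1) was 0.981 to 0.986 within groups and 0.946 to 0.956 between them. Cartilage genes marked both groups, and the 10 cartilage markers summed to 6323 to 6781 FPKM in cKO and 9262 to 12657 FPKM in Control libraries, with 8 lower. Of 10 skeletal muscle markers, 8 were tested and called higher, but 6 of these reached the filter only through the cKO libraries, so the filter itself favoured that direction. The 10 markers summed to 110 to 197 FPKM in cKO and 4.62 to 6.64 FPKM in Control libraries, with Myog at 0 in each Control and Pax7 at 0 in all 6 libraries. Of 6 tested markers of macrophages and leukocytes 1 was higher, of 7 of fibroblasts and synovium 2 were higher and 1 lower, and 1 endothelial marker was tested and not called. Beside these marker counts, 7.96% of all genes tested were called lower and 9.81% higher. The part of other cells in the results below was not tested. Y-linked transcript was present in 1 of 3 cKO and 2 of 3 Control libraries. The label prefix differs between all cKO and all Control libraries, and any effect of it cannot be told apart from that of genotype.

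Promoters of 4 members are shown because E2F-type motifs, known from genes of dividing cells, were matched in 3 of them and not in the other. RefSeq promoters (GRCm38.p6, the assembly also called mm10, 250 bases before to 50 after each start) were found for all 10 genes, 15 in all. They were searched on both strands for E2F-type motifs (TTTGGCGC, TTTCCCGC, TTTCGCGC or TTTGCCGC), the letters of motifs known to bind the E2F factors of S phase. Only full matches were counted. Shorter runs were not, such as TTGGCGC, which stands in the Uhrf2 promoter, and TTCCCGC, which stands in the first Uhrf1 promoter. Of 32851 promoters of that length, 2.27% held one, and of the 27025 genes they belong to, 2.61% had one in any promoter. Among the 10 genes, matches stood in 1 of 2 promoters of Uhrf1, 1 of 3 of Dnmt1 and the only one of Hells. The matching starts of Uhrf1 and Dnmt1 lie 976 and 7265 bases from the start of the gene in the deposited table, and the promoters at that start held no E2F-type match. In capitals are the E2F-type matches, and Uhrf2, the paralog of Uhrf1, is set beside them. The Uhrf1 promoter is that of the second start (chr17:56304063-56304362, plus strand), the Dnmt1 promoter that of the third (chr9:20952574-20952873, minus strand), and those of Hells (chr19:38930740-38931039, plus strand) and Uhrf2 (chr19:30030263-30030562, plus strand) are of their only listed starts.
Uhrf1: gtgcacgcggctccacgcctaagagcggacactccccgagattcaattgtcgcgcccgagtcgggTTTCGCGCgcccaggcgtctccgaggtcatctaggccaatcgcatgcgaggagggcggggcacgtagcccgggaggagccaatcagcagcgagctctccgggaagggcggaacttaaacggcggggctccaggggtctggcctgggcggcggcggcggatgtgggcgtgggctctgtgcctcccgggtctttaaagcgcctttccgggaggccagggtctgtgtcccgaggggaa
Dnmt1: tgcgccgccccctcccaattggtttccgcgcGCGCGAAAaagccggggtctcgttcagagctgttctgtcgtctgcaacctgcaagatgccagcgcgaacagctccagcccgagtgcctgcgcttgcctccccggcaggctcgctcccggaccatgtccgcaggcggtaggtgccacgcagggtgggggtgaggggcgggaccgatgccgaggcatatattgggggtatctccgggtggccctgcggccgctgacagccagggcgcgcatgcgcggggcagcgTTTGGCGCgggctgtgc
Hells: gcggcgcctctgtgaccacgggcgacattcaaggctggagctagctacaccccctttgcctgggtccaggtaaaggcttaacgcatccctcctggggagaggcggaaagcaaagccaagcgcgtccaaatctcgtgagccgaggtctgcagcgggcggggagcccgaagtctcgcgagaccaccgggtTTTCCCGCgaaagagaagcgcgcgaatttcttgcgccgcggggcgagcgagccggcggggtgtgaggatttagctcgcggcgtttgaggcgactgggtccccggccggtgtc
Uhrf2: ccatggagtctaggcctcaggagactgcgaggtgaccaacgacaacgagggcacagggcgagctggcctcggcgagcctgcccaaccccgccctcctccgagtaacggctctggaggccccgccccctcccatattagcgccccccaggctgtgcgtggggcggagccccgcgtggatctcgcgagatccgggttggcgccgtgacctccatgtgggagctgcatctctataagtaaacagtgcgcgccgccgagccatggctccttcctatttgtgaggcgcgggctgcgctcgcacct

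Counted from the start, with negative positions upstream, the Uhrf1 match lay at -185 to -178, the Dnmt1 matches at -219 to -212 on the opposite strand and at 34 to 41, and the Hells match at -62 to -55. None of them overlapped a match to the other motifs searched, CCAAT, which is bound by NF-Y (37.4% of all promoters), and TTTGAA, the CHR motif of cell-cycle genes (17.9%). In the Dnmt1 promoter, CCAAT matches on opposite strands overlapped each other at -236 to -229. CCAAT occurred in promoters of Uhrf1, Dnmt1, Tet3 and Tdg, and TTTGAA in that of Dnmt3b and in the first Dnmt1 promoter. A match is a run of letters, not a measured site, and no binding or methylation was measured here. The promoters were rich in CpG: those of Uhrf1, Dnmt1 and Hells printed above held 33, 33 and 34 CpG, and that of Uhrf2 28, against a median of 7 over all promoters. Across the 15, CpG ran from 2 in the first Dnmt1 promoter to 57 in that of Tet2. Each E2F-type motif searched holds a CpG itself. The shares of all promoters and genes with such a match, given above, were not matched for CpG content.

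**Figure D1:**
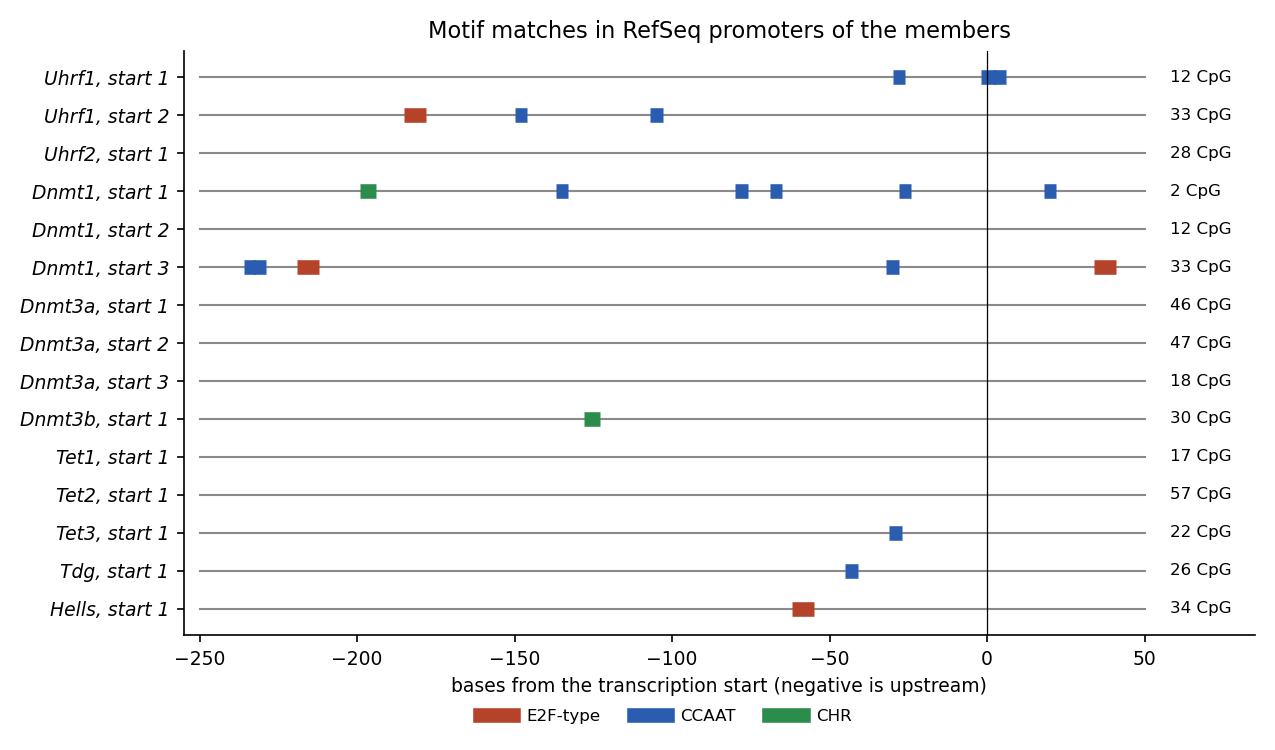
Matches to E2F-type (red), CCAAT (blue) and CHR (green) motifs in the 15 RefSeq promoters of the 10 genes, by position from the transcription start in bases, with the number of CpG at the right. E2F-type matches stand in 1 promoter each of Uhrf1, Dnmt1 and Hells.

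The first question was what the knockout did to the methylation machinery as a whole. Of the 10 genes, 8 reached 1 FPKM in 2 or more libraries and were tested with limma on log2(FPKM + 1), with Benjamini-Hochberg adjustment over all 11911 genes tested and a threshold of 0.05. Uhrf1, Dnmt1 and Hells were lower in cKO cells and no member was higher. Over all genes tested 17.8% were called, 7.96% as lower and 9.81% as higher. The median fitted difference of the 8 was -0.38, against 0.00039 over all genes tested. Both the calls and this median include Uhrf1, the targeted gene, whose fall was set by the design. The median also includes Tdg, whose level is uncertain, as described below. Dnmt3b and Tet1 did not pass the filter and are described below with their values.

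Uhrf1 (chr17:56303337-56323486, plus strand, mm10) stood at 3.22, 3.17 and 2.73 FPKM in cKO libraries, against 28.2, 22.9 and 30.6 FPKM in Control libraries. Every cKO library lay far below every Control library, as the label says. The mean was 3.04 ± 0.273 FPKM in cKO and 27.2 ± 3.97 FPKM in Control cells (SD, n = 3 each), 8.96-fold lower. The fitted difference was -2.80 ± 0.13 (SE; limma, adjusted p = 1.7e-06). The value counts fragments from the whole gene, so what is left in cKO cells may hold transcript without the deleted part.

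Dnmt1 (chr9:20907206-20959888, minus strand), the maintenance methyltransferase, stood at 28.8, 33.2 and 30.8 FPKM in cKO libraries, against 45.7, 46.8 and 54.3 FPKM in Control libraries. The groups did not overlap, and 17.5% of all genes tested lay apart with cKO below. Its mean was 30.9 ± 2.22 FPKM in cKO and 48.9 ± 4.68 FPKM in Control cells (SD, n = 3 each), 1.58-fold lower, with a fitted difference of -0.64 ± 0.098 (SE; limma, adjusted p = 0.00200). The call held without any 1 library. In bulk RNA, fewer cells of a kind and less RNA per cell cannot be told apart.

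Hells (chr19:38930990-38968277, plus strand), whose product is also known as LSH, stood at 13.2, 16.2 and 12.1 FPKM in cKO libraries, against 22.5, 16.9 and 22.7 FPKM in Control libraries. The groups came close to touching, since cKO 2 was the highest of its group and Control 2 the lowest of its own. The mean was 13.8 ± 2.11 FPKM in cKO and 20.7 ± 3.30 FPKM in Control cells (SD, n = 3 each), 1.49-fold lower, with a fitted difference of -0.54 ± 0.15 (SE; limma, adjusted p = 0.0306). Leaving out cKO 1, cKO 3, Control 1 or Control 3 ended the call (adjusted p = 0.0915, 0.115, 0.0778 and 0.0840). So did taking Y-linked transcript as a covariate (adjusted p = 0.0700) and plain eBayes (adjusted p = 0.0569). In the authors' deposited table, whose test called 22.9% of the 9701 genes it was run on, Uhrf1, Dnmt1 and Hells each had q = 0.00052. The same q was listed there for other genes named below, such as Pole2, Rrm2 and Shmt2, so it does not rank these genes. Uhrf2, Dnmt3a and Tet3 were tested there and not called (q = 0.151, 0.184 and 0.483), and the other 4 members were not tested in it.

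**Figure D2:**
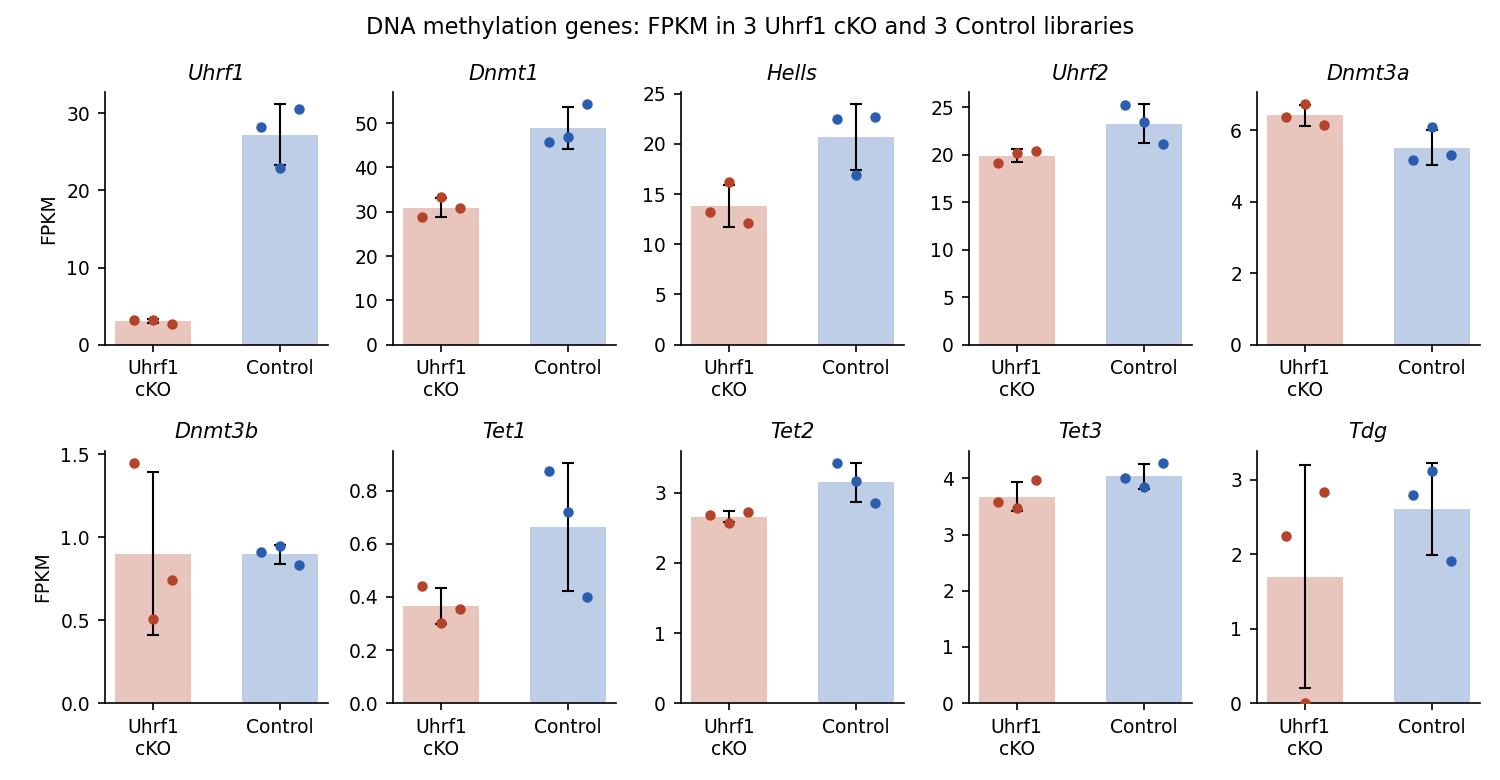
FPKM of the 10 genes in Uhrf1 cKO (red, left) and Control (blue, right) libraries, with bars for the mean of 3 libraries, error bars for the SD and points for libraries 1 to 3 from left to right. Uhrf1, Dnmt1 and Hells are lower in cKO, while Tdg is listed at 0 in cKO 2.

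Uhrf2 (chr19:30030513-30093724, plus strand) encodes a protein of the same domain plan as UHRF1, which in mouse cells is known not to replace it in maintenance. It stood at 19.1, 20.2 and 20.4 FPKM in cKO libraries, against 25.2, 23.5 and 21.1 FPKM in Control libraries. All cKO values lay below all Control values, by little, and 17.5% of all genes tested were apart in this way. The fitted difference was -0.21 with a 95% interval of -0.43 to 0.0070 (limma, adjusted p = 0.172), so no rise of the paralog was measured and a small fall is within the interval. The ratio of Uhrf1 to Uhrf2 FPKM was 0.169, 0.157 and 0.134 in cKO libraries and 1.12, 0.974 and 1.45 in Control libraries.

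The de novo methyltransferase gene Dnmt3a stood at 6.36, 6.73 and 6.15 FPKM in cKO libraries, against 5.16, 6.09 and 5.30 FPKM in Control libraries. The groups lay apart, with cKO above, as did 18.4% of all genes tested, and cKO 3 was only just above Control 2. The fitted difference was 0.19 with a 95% interval of -0.087 to 0.46 (limma, adjusted p = 0.338). Its row overlaps that of Gm10485, and how reads of both were counted is not stated in the labels. Dnmt3b stood at 1.45, 0.510 and 0.743 FPKM in cKO libraries, against 0.914, 0.947 and 0.836 FPKM in Control libraries, so the groups overlapped and cKO 1 was the highest of all. In a fit of all 16187 genes above 0 in any library, where 12.0% of genes were called, Dnmt3b had a difference of -0.028 with a 95% interval of -0.48 to 0.43 (limma, adjusted p = 0.950).

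Dnmt1 was thus the most abundant methyltransferase transcript in both groups, with the de novo genes far below. The FPKM of Dnmt3a and Dnmt3b together came to 27.1%, 21.8% and 22.3% of that of Dnmt1 in cKO libraries and to 13.3%, 15.04% and 11.3% in Control libraries. The sum of the 3 methyltransferase genes was 38.3 ± 1.99 FPKM in cKO and 55.4 ± 4.52 FPKM in Control cells (SD, n = 3 each). The ratio of Dnmt1 to Uhrf1 FPKM was 8.94, 10.5 and 11.3 in cKO libraries and 1.62, 2.05 and 1.77 in Control libraries. These shares were computed from members whose differences are given above and carry no test of their own.

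Among the oxidising enzymes, Tet2 stood at 2.68, 2.57 and 2.73 FPKM in cKO libraries, against 3.42, 3.17 and 2.86 FPKM in Control libraries. All cKO values were below all Control values, but the fitted difference of -0.18 (95% interval -0.50 to 0.14) did not pass the test (limma, adjusted p = 0.435). Tet3 stood at 3.59, 3.48 and 3.97 FPKM in cKO libraries, against 4.002, 3.84 and 4.28 FPKM in Control libraries. Its groups overlapped, and its difference was -0.11 (95% interval -0.41 to 0.19; limma, adjusted p = 0.632). Tet1 was the rarest member at 0.440, 0.303 and 0.356 FPKM in cKO libraries, against 0.872, 0.722 and 0.399 FPKM in Control libraries. The lowest Control value of Tet1 lay below the highest cKO value, and in the fit of all genes above 0 its difference was -0.28 (95% interval -0.61 to 0.055; limma, adjusted p = 0.275). Tet3 made up 53.5% to 56.3% of the summed Tet FPKM in cKO libraries and 48.2% to 56.8% in Control libraries, and Tet1 4.77% to 6.56% in cKO and 5.29% to 10.5% in Control libraries. The Tet sum was 6.70 ± 0.353 FPKM in cKO and 7.86 ± 0.391 FPKM in Control cells (SD, n = 3 each).

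Tdg, the glycosylase that excises oxidised methylcytosine, stood at 2.25, 0 and 2.83 FPKM in cKO libraries, against 2.79, 3.11 and 1.91 FPKM in Control libraries. The 0 of cKO 2 may be a failed estimate, and the groups overlapped (limma, adjusted p = 0.379). The table lists Tdg over chr10:82629838-82690650, the same interval as the row of Gm9855, which RefSeq names Tdg-ps2, a transcribed Tdg pseudogene. The Gm9855 row stood at 25.2, 25.9 and 24.4 FPKM in cKO libraries, against 23.0, 24.7 and 26.6 FPKM in Control libraries. The row of the Tdg gene thus held at most 11.2% of the summed FPKM of the pair. The sum, formed after the values were seen, was 27.4, 25.9 and 27.3 FPKM in cKO libraries and 25.8, 27.8 and 28.5 FPKM in Control libraries. In cKO 2, where Tdg was listed at 0, the sum was close to that of the other libraries. Most of the sum was the Gm9855 row in every library, so it cannot show whether reads moved between the rows. The authors' deposited test marked the Gm9855 row as LOWDATA. The labels do not state how reads were shared between the similar copies, so the level of Tdg is uncertain, and the fitted difference of -0.62 had a standard error of 0.44. Without cKO 2 it was -0.016. The interval also holds Glt8d2, a gene that GENCODE places on the opposite strand, at 9.49, 8.15 and 8.80 FPKM in cKO libraries, against 15.1, 14.2 and 11.8 FPKM in Control libraries.

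**Figure D3:**
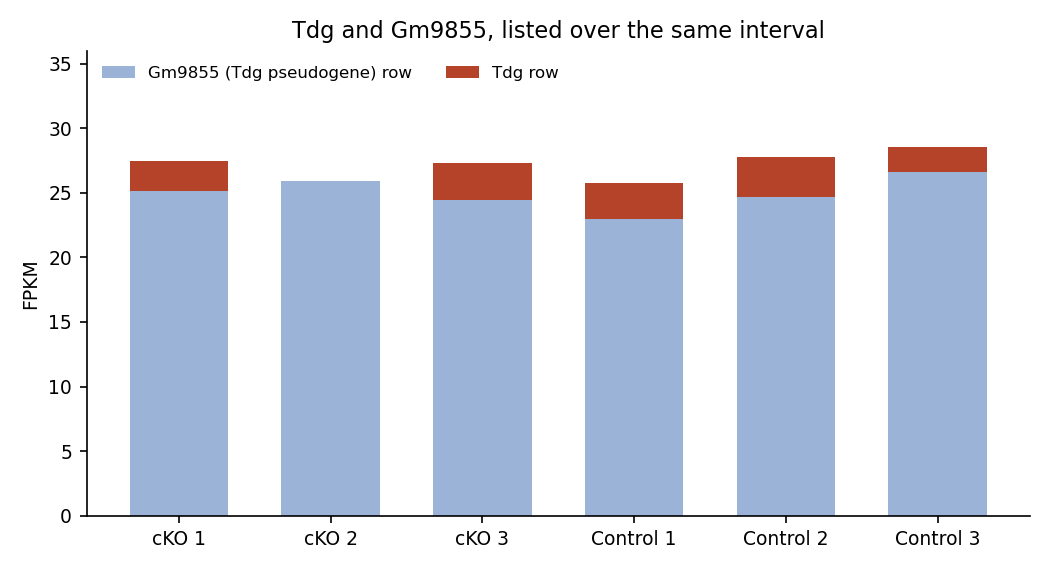
FPKM of the Gm9855 row (light blue) with the Tdg row stacked on it (red) in each library. The Tdg row varies from 0 to 3.11 FPKM, while the stack, most of it the Gm9855 row, stays between 25.8 and 28.5 FPKM in all 6 libraries.

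In cKO cells the order of mean levels was Dnmt1, Uhrf2, Hells, Dnmt3a, Tet3, Uhrf1, Tet2, Tdg, Dnmt3b and Tet1. In Control cells it was Dnmt1, Uhrf1, Uhrf2, Hells, Dnmt3a, Tet3, Tet2, Tdg, Dnmt3b and Tet1. Uhrf1 thus held the sixth place in cKO and the second in Control cells, and the other 9 genes kept their order. The place of Tdg rests on its own row, whose level is uncertain. In cKO libraries the Tdg range also overlapped those of Uhrf1 and Tet1, which are not its neighbours. The ranges of Uhrf1 and Tet2, Tet2 and Tdg, and Tdg and Dnmt3b overlapped in cKO libraries, and those of Uhrf1 and Uhrf2, Uhrf2 and Hells, Tet2 and Tdg, and Dnmt3b and Tet1 in Control libraries, so these neighbours are not ordered beyond their spread.

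Since Uhrf1, Dnmt1 and Hells are expressed around S phase, replication genes were read beside them. All 30 genes of the S phase list were tested, and 19 were lower and none higher (limma, adjusted p under 0.05), 63.3% against 7.96% of all genes called lower, with a median difference of -0.47. The number lower was 12 without cKO 1 and 12 without cKO 3. The largest fall was that of Pole2, a subunit of DNA polymerase epsilon, at 8.58 ± 0.690 FPKM in cKO and 16.8 ± 2.87 FPKM in Control cells (SD, n = 3 each; limma, adjusted p = 0.00181). Rrm2, the ribonucleotide reductase subunit that limits nucleotide supply, stood at 149 ± 26.2 FPKM in cKO and 260 ± 28.1 FPKM in Control cells (SD, n = 3 each; limma, adjusted p = 0.00249). Gins2, part of the replicative helicase, fell 1.62-fold (limma, adjusted p = 0.00239). Rfc4, a clamp loader subunit, fell 1.66-fold (limma, adjusted p = 0.0392), a call lost without cKO 1, cKO 3, Control 1 or Control 3 (adjusted p = 0.0733 to 0.135), and the authors' deposited table did not call it (q = 0.438). The most abundant uncalled genes were Rfc3 and Prim1 (adjusted p = 0.229 and 0.261).

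Set among these genes, the differences of Dnmt1 and Hells lay within the range. That of Uhrf1 lay apart, but Uhrf1 is the targeted gene, so this was set by the design. Of the 30 S phase genes, none fell further than Uhrf1, 6 fell further than Dnmt1 and 10 further than Hells, on fitted differences of -0.89 (Pole2) to -0.17 (Cdc45). Relative to the mean log2(FPKM + 1) of the 30 genes, Uhrf1 stood at -1.99, -2.16 and -2.18 in cKO libraries and at 0.26, 0.079 and 0.31 in Control libraries. Dnmt1 stood at 0.83, 0.88 and 0.92 above that mean in cKO libraries and at 0.94, 1.08 and 1.12 above it in Control libraries, a difference of -0.17. Hells stood at -0.24, -0.12 and -0.36 in cKO libraries and at -0.052, -0.34 and -0.10 in Control libraries, where the groups overlapped, with a difference of -0.075. These relative values were not tested. Within groups, cKO 2, the highest cKO library for Hells, was the highest of its group for 20 of the 30 genes, and Control 2, the lowest Control library for Hells, was the lowest of its group for 19 of the 30. Hells was lowest of the cKO group in cKO 3, which was lowest for 9 of the 30 genes, against 16 for cKO 1. The 30 genes are not independent, and the same counts were not made over all genes. The part of cell division in the falls of Dnmt1 and Hells was not tested.

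**Figure D4:**
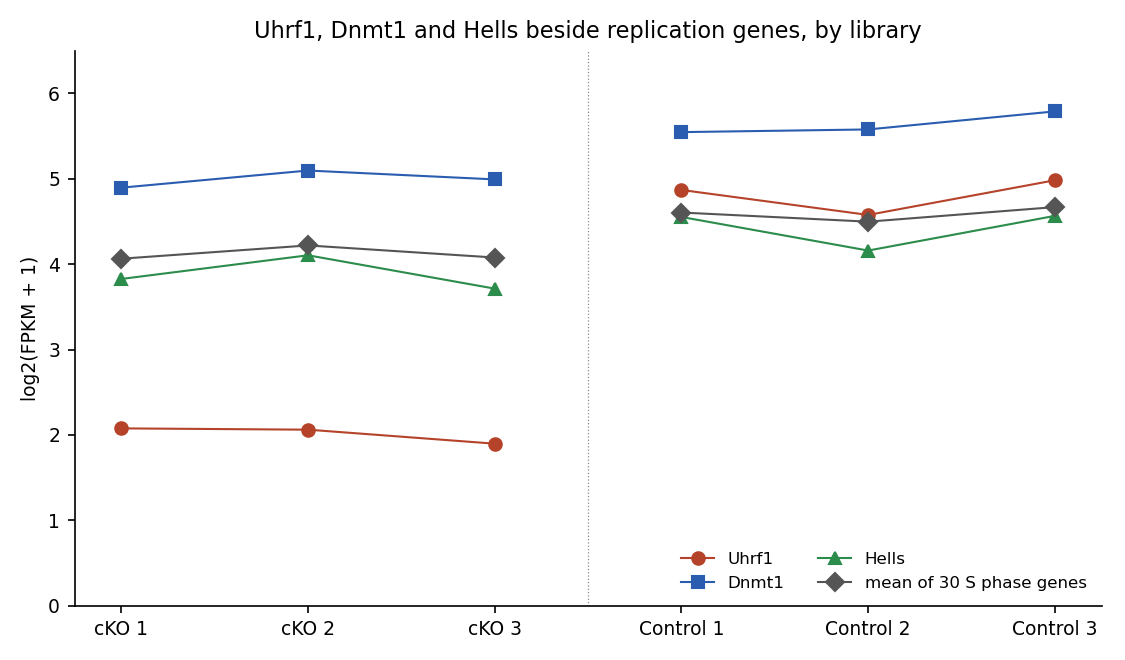
log2(FPKM + 1) of Uhrf1, Dnmt1 and Hells and the mean over 30 S phase genes in each library, cKO at the left and Control at the right of the dotted line. Dnmt1 lies 0.83 to 0.92 above the mean of the replication genes in cKO and 0.94 to 1.12 above it in Control libraries, while Uhrf1 lies 1.99 to 2.18 log2 units below it in cKO and 0.079 to 0.31 above it in Control libraries.

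The genes whose profile was nearest were found among 8390 genes of at least 5 FPKM on average, by the root mean square difference of log2(FPKM + 1), centred on each gene's mean, over the 6 libraries. For Uhrf1 they were A2m, Matn1, Sfrp2 and Islr, at differences of 0.29, 0.47, 0.49 and 0.63 log2 units. For Dnmt1 they were Incenp, Tubb4b, Mcm5 and Mybl2, at 0.040, 0.044, 0.044 and 0.048 log2 units. For Hells they were Cdk2, Cenpq, Pop1 and 2700094K13Rik, at 0.043, 0.056, 0.057 and 0.067 log2 units. The nearest profile to Uhrf1 lay farther from it than the 4 named for Dnmt1 or Hells did from theirs. These distances include the difference between the groups, and that of Uhrf1, the targeted gene, was set by the design. The distances of Uhrf1 can thus not be weighed against those of Dnmt1 and Hells. Cdk2 itself was not called (limma, adjusted p = 0.0520).

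Partners that recruit or regulate the maintenance machinery went in both directions. Of 21 tested, 6 were lower and 2 higher, 38.1% against 17.8% of all genes tested, with a median of -0.098. The number called was 5 without cKO 2, cKO 3 or Control 3. Lower were Usp11, a deubiquitylase gene, at 6.58, 6.07 and 6.98 FPKM in cKO and 14.5, 12.5 and 12.4 FPKM in Control libraries (limma, adjusted p = 0.000736), and 2810417H13Rik, now Pclaf, at 21.7, 29.0 and 23.2 FPKM in cKO and 48.2, 44.5 and 43.5 FPKM in Control libraries (limma, adjusted p = 0.000927). Pclaf encodes PAF15, which UHRF1 ubiquitylates at replication forks. Cdca7, which encodes the partner that carries HELLS to chromatin, stood at 7.76, 8.85 and 5.56 FPKM in cKO and 13.3, 12.4 and 13.5 FPKM in Control libraries (limma, adjusted p = 0.00831). Each of these had groups that did not overlap. In the whole list, 8 of the 21 tested genes lay apart with cKO below and 2 with cKO above, against 17.5% and 18.4% of all genes tested. Pcna, Lig1 and Suv39h1 were the other lower genes, and Lig1 (limma, adjusted p = 0.0430) lost its call without any 1 library except Control 2 (adjusted p = 0.0565 to 0.142). The rise was led by Suv39h2, a histone methyltransferase gene of heterochromatin, at 6.93, 8.86 and 7.99 FPKM in cKO and 2.41, 2.61 and 2.06 FPKM in Control libraries. Its mean was 3.36-fold higher in cKO, with a fitted difference of 1.41 ± 0.14 (SE; limma, adjusted p = 0.000204). Its paralog Suv39h1 stood at 10.5 ± 0.689 FPKM in cKO and 13.7 ± 0.518 FPKM in Control cells (SD, n = 3 each; limma, adjusted p = 0.0416), and this call was lost without each of the 6 libraries in turn (adjusted p = 0.0540 to 0.141). The histone chaperone gene Daxx was the other higher gene (limma, adjusted p = 0.0209), a call lost without cKO 2, cKO 3 or Control 3 (adjusted p = 0.0504 to 0.0882). Trim28 and Hdac1, the most abundant genes of the list that were not called, had adjusted p = 0.0930 and 0.304 (limma). Dppa3, a known inhibitor of UHRF1 in oocytes, was at 0 in all 6 libraries, and Dnmt3l did not pass the filter.

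Of 22 tested genes of demethylation and base excision, 4 were lower and 1 higher, with a median of -0.16, and the number called was 3 without cKO 3. That is 22.7% called, near the 17.8% of all genes tested. The uracil glycosylase gene Ung stood at 3.13, 2.98 and 4.56 FPKM in cKO and 6.49, 9.65 and 7.83 FPKM in Control libraries (limma, adjusted p = 0.00567). Neil3, a glycosylase gene of dividing cells, fell 1.68-fold (limma, adjusted p = 0.0227), a call lost without cKO 3, Control 1 or Control 2 (adjusted p = 0.0550 to 0.0759). Idh2, whose product makes the alpha-ketoglutarate that TET enzymes consume, fell 1.43-fold (limma, adjusted p = 0.00397), and Parp1, a sensor of strand breaks, was the other lower gene (limma, adjusted p = 0.0141, and 0.0540 without cKO 3). Gadd45g, a stress gene linked to repair-based demethylation, stood at 46.9, 44.4 and 58.7 FPKM in cKO and 22.2, 24.1 and 34.5 FPKM in Control libraries, 1.86-fold higher (limma, adjusted p = 0.00617). For each of the 5 called genes the groups did not overlap. Uncalled genes lay apart too, since 7 of the 22 tested genes of the list had cKO below and 1 cKO above. Over all genes tested these shares were 17.5% and 18.4%. Ogt, which binds TET proteins, and the cytosolic enzyme gene Idh1 were not called (adjusted p = 0.285 and 0.881).

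Of 16 tested genes of methyl donor supply 4 were lower and none higher, with a median of -0.25. That is 25% called, all lower, against 7.96% of all genes tested called lower and 17.8% called in either direction. The number was 1 without cKO 1, 1 without cKO 2, and 2 without cKO 3, Control 2 or Control 3. Mthfd1l, of the mitochondrial folate cycle, stood at 29.8, 31.3 and 31.0 FPKM in cKO and 42.0, 41.8 and 45.9 FPKM in Control libraries (limma, adjusted p = 0.00379), with no overlap. In this list 10 of the 16 tested genes lay apart with cKO below, against 17.5% of all genes tested. Shmt2, of the same cycle, fell 1.57-fold (limma, adjusted p = 0.0318), but leaving out cKO 1, cKO 2, Control 2 or Control 3 ended the call (adjusted p = 0.0727 to 0.109). Ahcy, which removes the by-product of methylation, fell 1.25-fold, a call lost without any 1 library except Control 1 (adjusted p = 0.0663 to 0.101). Mtap fell 1.28-fold, a call lost without each of the 6 libraries in turn (adjusted p = 0.0517 to 0.156). Mat2a, which makes S-adenosylmethionine outside the liver, stood at 85.8, 83.0 and 82.2 FPKM in cKO and 106, 99.4 and 91.9 FPKM in Control libraries (limma, adjusted p = 0.0662, and 0.0373 without Control 3). Mthfd2 had adjusted p = 0.0867.

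**Figure D5:**
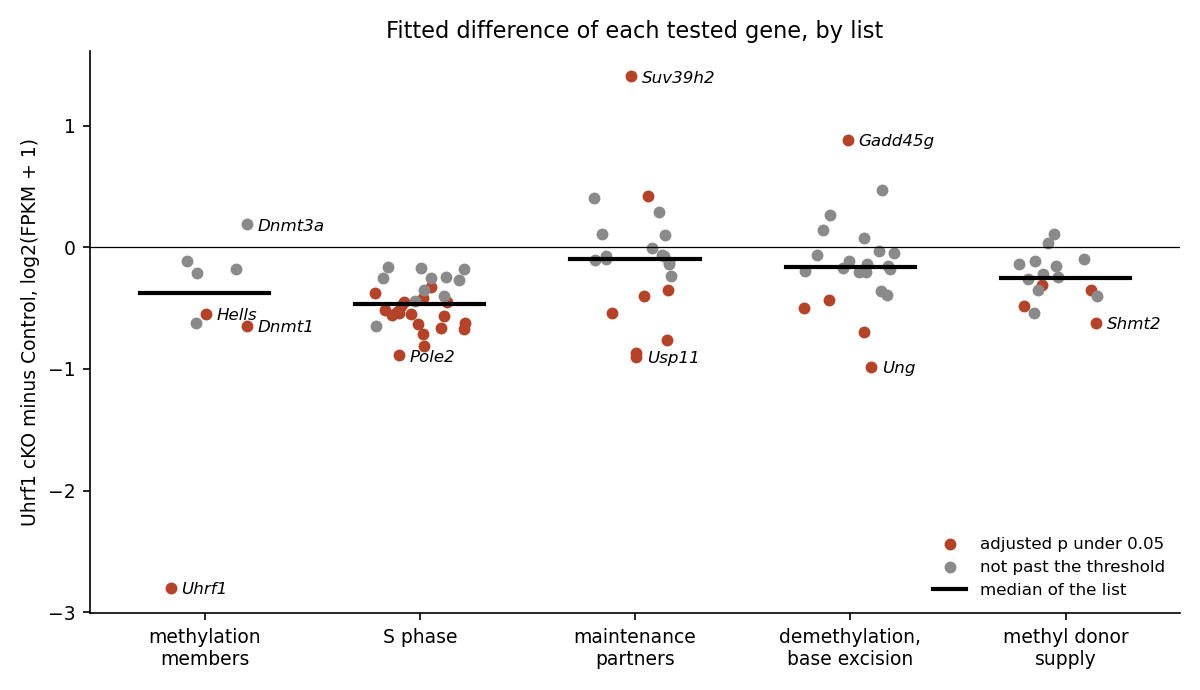
Fitted difference (Uhrf1 cKO minus Control, log2(FPKM + 1)) of each tested gene of the 10 methylation genes and the other lists, with genes past an adjusted p of 0.05 in red and the list median as a black line. Uhrf1 stands at -2.80, below every other gene shown, and Suv39h2 at 1.41 above them.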

How the data were processed

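Total RNA of integrity number over 8 was made into stranded mRNA libraries, per the labels' protocols. TopHat and Cufflinks were used on mm10, per the submitters' processing notes. The authors deposited FPKM per library and group mean, per the file headers. They also deposited, per gene, a log2 fold change, a score (their test statistic), a p-value and a q-value. Versions, annotation, strand setting and library scaling are not given in the labels. FPKM are not counts, so limma 3.58.1 in R 4.3.3 (eBayes with trend and robust options) was run on log2(FPKM + 1), two-sided, for 11911 genes of at least 1 FPKM in 2 libraries, after being tested on simulated data. This scale understates the change of low genes. Folds are ratios of mean FPKM. Of the table, 1 line was empty. Coordinates are counted from 1. Replicate numbers are not stated to pair the libraries, and the main fit took the libraries as unpaired. The labels do not say that libraries came from separate animals, and p-values cover only the spread among these libraries, which may be technical.

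The members, and the lists of maintenance partners, demethylation and base excision, methyl donor supply, S phase and cell type markers, were chosen with earlier results of these data known. Named were all members, up to 4 called genes per list by the size of the fitted difference and the 2 most abundant uncalled ones. Pcna, Lig1, Suv39h1, Daxx, Parp1, Dppa3, Dnmt3l, Cdc45, Gm9855, Glt8d2 and the markers were named after their values were seen. Symbols were matched through RefSeq synonyms. Protein comparisons were not made. The germ cell markers had no tested member. Alternatives were other pseudocounts, filters and scalings, a replicate block, a covariate for Y-linked transcript, plain eBayes, the authors' test and leaving out each library.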

Additional observations from a re-analysis of the deposited data

How the results depend on the processing

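Uhrf1 and Dnmt1 stayed called and lower under every alternative run, and 3 members were called under each except the replicate block, the Y-linked covariate, plain eBayes and leaving out cKO 1, cKO 3, Control 1 or Control 3, where Hells was lost and 2 remained. Replicate numbers are not stated to pair the libraries. Correlations of deviations were 0.17, 0.026 and -0.044 for numbers 1, 2 and 3, and -0.14 to 0.13 between unlike numbers. With 3 libraries per group, these cannot settle whether the numbers pair. The fit with a replicate block gave a Hells difference of -0.54 (limma, adjusted p = 0.0518). Leaving out 1 library gave 5 to 7 called maintenance partners, 3 to 6 demethylation genes, 1 to 3 methyl donor genes and 12 to 18 S phase genes. The Y-linked covariate gave 5 maintenance partners and 2 methyl donor genes, plain eBayes 1 methyl donor gene and the authors' deposited test 7. The cause was not tested. The uncalled Idh1 ran from -0.12 to 0.082 with 1 library left out, and was above 0 without cKO 2 (0.082) and Control 2 (0.0012). Among members and named genes other than Uhrf1, 502 of the alternative values kept direction and side of the threshold, 66 lost a call and 1 gained one. Depth is unknown, so low genes such as Tet1 and Dnmt3b carry errors that cannot be split into counting and biology.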
